A study of Mus musculus with 18 samples.

Results

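The genes described here are 36 transcriptional regulators of the liver, 35 DNA-binding factors and 1 corepressor, out of 56691 genes in the deposited table. They were taken by gene symbol from a list of nuclear receptors and hepatocyte transcription factors, and all 36 symbols were found. That list was chosen with earlier results of these data known. RNA sequencing was done in livers from wild-type (WT) mice of strain C57BL/6, with 6 libraries in each of 3 groups. Sham animals were anaesthetised and had a laparotomy. In the IR group (ischemia and reperfusion) clips on the portal triad made about 70% of the liver ischemic over 1 h, and reperfusion lasted 6 h. Animals labelled IR-Ori underwent the identical procedure with oridonin, a diterpenoid from the plant Isodon rubescens. How and when oridonin was given, its dose, and the mice's age and sex were not part of the sources used here. Whether each library is a different mouse is not labelled, and p-values then reflect only library-to-library spread, which may be technical.

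Nuclear receptors are transcription factors whose ligand-binding domain lets a small lipophilic molecule, such as a steroid, an oxysterol, a bile acid, a retinoid or a drug, set which coregulators they recruit to DNA. Many of them bind as heterodimers with the retinoid X receptors, and in the liver they control bile acid, lipid, glucose and drug metabolism. Hepatocyte identity is held by a mutually regulating set of factors, among them the nuclear receptor HNF4α, the FOXA pioneer factors, the ONECUT factors, PROX1 and C/EBPα.

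Libraries held 12449529 to 19798188 counts. Genes encoded by mitochondrial DNA took a share of the counts that ran from 10.3% to 42.8% (sham), from 6.52% to 42.9% (IR) and from 14.1% to 32.0% (IR-Ori), so this share differed more within the groups than between their means (21.9%, 19.2% and 27.1%). Levels are given as the authors' FPKM (fragments per kilobase of exon, scaled to the library total), where the total includes the mitochondrial counts, and differences as log2 fold changes from edgeR's quasi-likelihood test on the counts with Benjamini-Hochberg adjustment over the 14595 genes tested and a threshold of 0.05. The liver label was checked with 8 hepatocyte markers, whose summed FPKM was 15141 to 52624 (sham), 27892 to 38587 (IR) and 28585 to 45363 (IR-Ori), and 0 of the 8 passed the test between groups. Markers of blood leukocytes moved with IR, where 5.52% of all genes tested were higher. In IR-Ori against IR, 3.01% of all genes tested were lower. All 7 neutrophil markers tested, of 8 listed, rose in IR against sham, but only 1 of the 7 was called lower in IR-Ori against IR. Their list had a summed FPKM of 3.89 to 26.2 (sham), 63.9 to 299.03 (IR) and 7.60 to 62.2 (IR-Ori). Of 6 monocyte and recruited macrophage markers tested, of 7 listed, 5 rose in IR and 5 fell in IR-Ori against IR, with a summed FPKM of 55.2 to 106 (sham), 100.49 to 139 (IR) and 64.0 to 123 (IR-Ori). Their log2 fold changes in IR ran from 0.25 to 4.67, with a median of 2.96, so the sum need not follow each marker. No marker of either list was at 0 in all 18 libraries. The part of these cells in the results below was not tested, and in bulk tissue fewer cells of a type and less RNA per cell cannot be told apart.

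The results below turn mainly on Nr1h5, Tle2 and Nr1i3, and the 250 bases before their annotated starts are printed here because these members had the 3 most negative log2 fold changes in IR against sham, a choice made after their values were seen. The sequences are RefSeq promoter windows of build GRCm38.p6, which held 31 of the 36 genes, and are written 5′ to 3′ on the strand of the gene with motif matches in capitals. The window of Nr1h5 is chr3:102964134-102964383 on the minus strand, that of Tle2 is chr10:81575037-81575286 on the plus strand and that of Nr1i3 is chr1:171213720-171213969 on the plus strand.
Nr1h5: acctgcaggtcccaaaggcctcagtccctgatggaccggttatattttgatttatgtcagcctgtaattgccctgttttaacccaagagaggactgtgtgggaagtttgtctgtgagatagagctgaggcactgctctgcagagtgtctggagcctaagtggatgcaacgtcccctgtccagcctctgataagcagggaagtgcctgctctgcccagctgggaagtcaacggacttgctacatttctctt
Tle2: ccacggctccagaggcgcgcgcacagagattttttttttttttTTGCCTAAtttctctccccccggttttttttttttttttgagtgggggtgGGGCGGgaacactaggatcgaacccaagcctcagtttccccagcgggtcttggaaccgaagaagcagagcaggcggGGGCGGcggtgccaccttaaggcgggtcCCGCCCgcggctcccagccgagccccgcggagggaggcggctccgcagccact
Nr1i3: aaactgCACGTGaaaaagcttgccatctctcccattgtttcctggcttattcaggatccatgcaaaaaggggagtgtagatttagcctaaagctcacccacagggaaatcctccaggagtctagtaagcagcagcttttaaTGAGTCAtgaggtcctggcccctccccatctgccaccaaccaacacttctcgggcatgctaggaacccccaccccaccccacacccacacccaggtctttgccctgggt
A total of 13 motifs, chosen after the windows had been seen, were searched on both strands: C/EBP TTGCNNAA, the HNF4 half-site AGGTCA, an HNF1 site, ONECUT ATCAAT, FOXA TGTTTAC, AP-1 TGANTCA, STAT TTCNNNGAA, NF-kB GGGANTTCC, a heat shock element, the GC box GGGCGG, the TATA box TATAAA, the E-box CACGTG and the CRE TGACGTCA. The Nr1h5 window held none of these letters. The Tle2 window held TTGCCTAA, a C/EBP match 207 bases before the start that 9.56% of all 32851 windows of this length had in some form, and 3 GC boxes. At least 1 GC box was found in 32.7% of all windows, and the share with 3 was not counted. The Nr1i3 window held the AP-1 match TGAGTCA 109 bases before the start and the E-box CACGTG 244 bases before it, found in 6.75% and 6.02% of all windows. No matches in these windows overlapped one another. GC content was 51.6%, 61.6% and 53.2% in the windows of Nr1h5, Tle2 and Nr1i3, and the median over all windows was 52.4%.

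Comparing IR with sham asks what ischemia and reperfusion did to these regulators. Of the 34 genes that passed the filter on low counts, 1 rose and 2 fell. Cebpd, an acute-phase C/EBP factor, rose, while Nr1h5, the bile acid receptor paralogue FXRβ, and Tle2, a Groucho corepressor, fell. Over all genes tested the share called was 5.52% higher and 2.36% lower, 7.89% in either direction, so the 3 of 34 members called were close to the share of all genes. The median log2 fold change was -0.15 over the 34 genes and 0.00 over all genes tested. Comparing IR-Ori with IR asks what oridonin changed in injured liver. Here 2 of the 34 genes rose, again Nr1h5 and Tle2, and 0 fell, against 0.596% higher and 3.01% lower over all genes tested, with medians of 0.12 and 0.00. The members were chosen with earlier results of these data known, so this gap in shares is not read as a result about them. Both comparisons hold the IR libraries, so a low IR value alone lowers the first and raises the second. Comparing IR-Ori with sham, edgeR called 0 members, and 0.0% of all genes in either direction. At an unadjusted p under 0.05 it still gave 0 members, and 1460 of all genes. DESeq2 also called 0 members there, and 34 genes higher (0.233%) and 4 lower (0.0274%) over the table. The FPKM ranges of IR-Ori and sham overlapped for all 36 members, while 0.171% of all genes tested were apart and higher and 0.0343% lower. The 2 genes not tested were Hnf4g and Rarb, with at most 0.38 and 0.15 FPKM in any library.

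**Figure D1:**
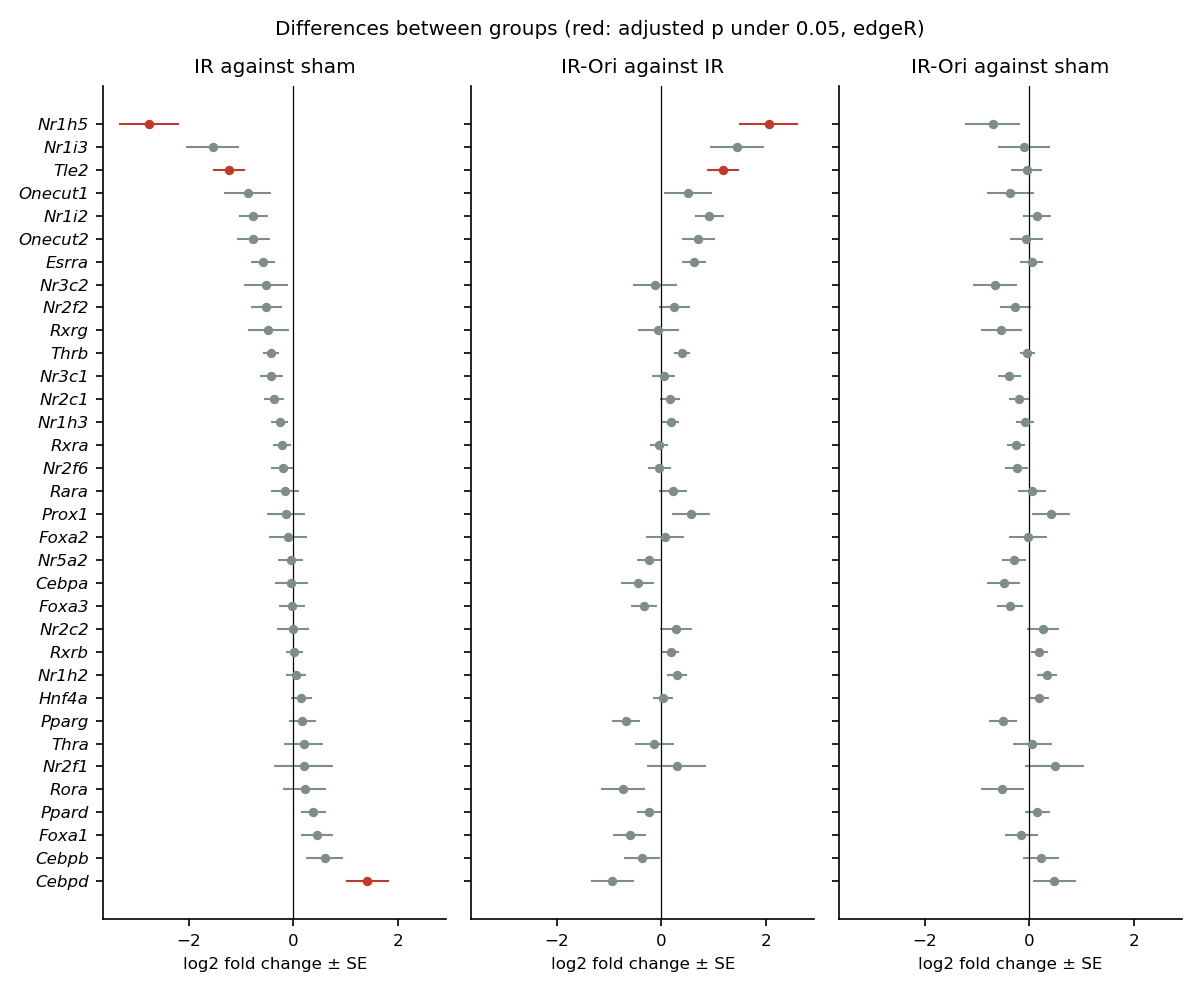
Log2 fold change ± standard error of the 34 tested genes in the 3 comparisons of 6 against 6 libraries, ordered by the difference between IR and sham, with red points for an adjusted p under 0.05 (edgeR). Nr1h5 and Tle2 lie left of 0 in IR against sham and right of 0 in IR-Ori against IR. Cebpd is red in the first panel only, where it lies right of 0, and no point is red in IR-Ori against sham.

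Of the NR1H receptors, Nr1h5 (ENSMUSG00000048938, GRCm39 chromosome 3, 102846974 to 102871449, minus strand) changed most of the 36 genes. It encodes FXRβ, a receptor related to the bile acid receptor FXR that responds to lanosterol in mice and is a pseudogene in humans. FPKM ran from 3.17 over a median of 4.95 to 8.07 in sham, from 0.12 over 0.715 to 1.60 in IR, and from 1.01 over 3.26 to 5.72 in IR-Ori. Every IR library was below every sham library, while IR-Ori overlapped both other groups. The counts behind these levels ran from 164 to 301 (sham), from 5 to 74 (IR) and from 40 to 207 (IR-Ori), so the lowest IR values rest on few counts. Nr1h5 fell by 2.76 ± 0.58 on the log2 scale in IR against sham (± SE, 6.79-fold lower, edgeR adjusted p = 0.00731) and rose by 2.06 ± 0.57 in IR-Ori against IR (4.18-fold, adjusted p = 0.0477). The difference from sham in IR-Ori, -0.70 ± 0.53, did not pass (adjusted p = 0.578). Groups whose ranges did not overlap in IR against sham were found in 2 of the 36 members, Nr1h5 and Tle2, both lower, against 1.13% of all genes tested lower and 2.04% higher.

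The fall of Nr1h5 in IR kept its call in each of the 18 fits that left out 1 library, with log2 fold changes of -3.31 to -2.52. Its rise in IR-Ori kept the call in 5 of these 18 fits (1.82 to 2.59); without IR 4, IR 5 or IR 6 it was 1.9, 1.82 and 1.87, with adjusted p of 0.120, 0.0966 and 0.101. Within IR and sham, the level also followed the mitochondrial share of a library. The 3 IR libraries with a share under 15% had 0.12 to 0.31 FPKM and the other 3 had 1.12 to 1.60, and in sham the same split gave 3.17 to 3.55 and 6.34 to 8.07. Since all IR libraries were below all sham libraries, the same had to hold on both sides of the split and is no further support. IR-Ori has only 1 library under 15% (4.32 FPKM), and its other 5, at 1.01 to 5.72, overlapped the 3 IR libraries with a share of at least 15%. With the share as a covariate, with a common slope for all groups, the differences were -2.82 ± 0.46 (edgeR adjusted p = 0.00140) and 1.99 ± 0.46 (adjusted p = 0.0318). Within libraries of a share of at least 15% they were -2.44 (adjusted p = 0.116) and 1.19 (adjusted p = 0.474), and within those under 15% the difference between IR and sham was -4.10 (adjusted p = 0.00412).

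**Figure D2:**
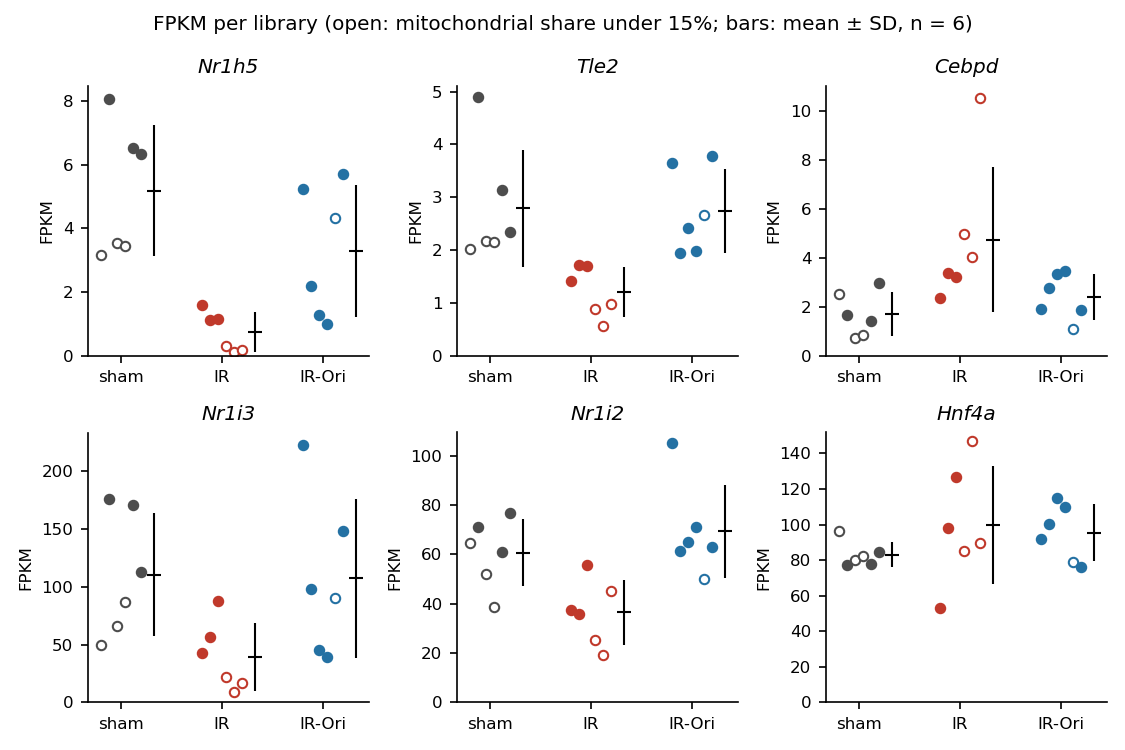
FPKM of 6 genes in each of 18 libraries by group, with bars for the mean and SD of 6 libraries and open points for libraries with a mitochondrial share under 15%. The IR points of Nr1h5 and Tle2 lie below all sham points, the IR points of Tle2 also below all IR-Ori points, and Hnf4a overlaps in all groups.

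The 2 oxysterol receptors of the same subfamily, which sense cholesterol metabolites, did not pass either test. Nr1h3 (LXRα) ran from 25.0 over 27.5 to 32.2 FPKM in sham, 19.2 over 23.2 to 31.4 in IR and 17.7 over 26.5 to 32.9 in IR-Ori. These ranges overlapped, with differences of -0.26 ± 0.16 in IR and 0.18 ± 0.16 in IR-Ori against IR (edgeR adjusted p = 0.356 and 0.507). Nr1h2 (LXRβ) had means of 9.65, 10.4 and 12.4 FPKM in sham, IR and IR-Ori.

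Tle2 (ENSMUSG00000034771, GRCm39 chromosome 10, 81410395 to 81426679, plus strand) encodes a Groucho corepressor, which has no DNA-binding domain and is brought to genes by other factors. FPKM ran from 2.03 over a median of 2.27 to 4.89 in sham, from 0.56 over 1.20 to 1.72 in IR, and from 1.95 over 2.55 to 3.78 in IR-Ori. The IR libraries were the 6 lowest of the 18, and Tle2 was the only member whose ranges did not overlap in IR-Ori against IR, where 0.391% of all genes tested were apart and higher and 1.10% lower. Tle2 fell by 1.24 ± 0.30 on the log2 scale in IR (2.35-fold lower, edgeR adjusted p = 0.0172) and was 1.18 ± 0.30 higher in IR-Ori than in IR (2.27-fold, adjusted p = 0.0342). In IR-Ori against sham the difference was -0.05 ± 0.30 (adjusted p = 0.953). The fall kept its call in each of the 18 fits without 1 library (-1.41 to -1.03), and the rise in IR-Ori in 12 of 18 (1.01 to 1.34), being lost without IR 4, IR 5, IR 6, IR-Ori 1, IR-Ori 3 or IR-Ori 6. Within libraries of a mitochondrial share of at least 15% the differences were -1.16 (adjusted p = 0.173) and 0.78 (adjusted p = 0.413), and with the share as a covariate -1.13 ± 0.23 (adjusted p = 0.00444) and 0.98 ± 0.23 (adjusted p = 0.0363). An antisense gene, Gm15917, overlaps Tle2 but had a mean of 4.78 counts against 211.

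The C/EBP factors bind as basic leucine zipper dimers. C/EBPα supports metabolic genes, whereas C/EBPβ and C/EBPδ serve the acute-phase response. Cebpd ran from 0.73 over a median of 1.53 to 2.98 FPKM in sham, from 2.37 over 3.71 to 10.5 in IR, and from 1.08 over 2.34 to 3.46 in IR-Ori. IR 6, at 10.5 FPKM, stood apart from the other IR libraries (2.37 to 4.97), and IR overlapped both other groups. Cebpd rose by 1.42 ± 0.42 on the log2 scale in IR (2.68-fold, edgeR adjusted p = 0.0428). Without IR 6 the difference was 0.94 (adjusted p = 0.132), and the call held in 6 of the 18 fits without 1 library, being lost without sham 2 to 5, IR 4 to 6, IR-Ori 1 to 4 or IR-Ori 6. The neutrophil and monocyte markers given above were also high in IR, and their part in the Cebpd level was not tested. In IR-Ori against IR the difference was -0.94 ± 0.41 (adjusted p = 0.173). The opposite-strand gene Spidr overlaps Cebpd over 1808 bases (means of 28.1 and 167 counts), and whether the counting used strand is not stated.

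Cebpa was among the most abundant members, at 52.1 over 99.3 to 129 FPKM in sham, 53.4 over 78.4 to 173 in IR and 37.0 over 64.2 to 110 in IR-Ori. The groups overlapped throughout, and the differences were -0.04 ± 0.31 and -0.45 ± 0.32 (edgeR adjusted p = 0.957 and 0.382). Cebpb had means of 64.3 ± 31.8, 102 ± 26.8 and 77.3 ± 29.3 FPKM (SD, n = 6) in sham, IR and IR-Ori, and its difference of 0.60 ± 0.35 in IR did not pass (adjusted p = 0.311). The opposite-strand gene Peds1 overlaps Cebpb over 908 bases (means of 287 and 1845 counts), with the same limit.

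The xenobiotic receptors CAR (Nr1i3) and PXR (Nr1i2), which switch on cytochrome P450, conjugation and transporter genes, did not pass the test in either comparison. Nr1i3, named here after its values were seen, ran from 49.6 over 100.2 to 176 FPKM in sham, from 9.06 over 32.3 to 87.6 in IR and from 39.7 over 94.2 to 223 in IR-Ori. It had the highest mean of the 36 genes in sham and in IR-Ori and the fourth in IR. The groups overlapped, and the log2 fold changes were -1.54 ± 0.51 in IR (edgeR adjusted p = 0.0689) and 1.45 ± 0.51 in IR-Ori against IR (adjusted p = 0.103). With DESeq2 the same values passed, at -1.55 (adjusted p = 0.0181) and 1.46 (adjusted p = 0.0381), and with the mitochondrial share as a covariate the first did, at -1.40 (adjusted p = 0.0361). Under a share of 15% the 3 IR libraries had 9.06 to 22.2 FPKM and the 3 sham libraries 49.6 to 87.2, a log2 fold change of -2.15 (edgeR adjusted p = 0.0172). At a share of 15% or more the differences were -1.37 (adjusted p = 0.317) and 0.84 (adjusted p = 0.571). Over all alternatives Nr1i3 passed in 4 of 31 for IR against sham and in 2 of 30 for IR-Ori against IR. The opposite-strand gene Tomm40l overlaps Nr1i3 over 4691 bases and had a mean of 341 counts against 5618, and the sources used here do not state whether the counting used strand.

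Nr1i2 ran from 38.7 over a median of 62.8 to 76.9 FPKM in sham, from 19.3 over 36.6 to 55.9 in IR and from 49.9 over 64.0 to 105 in IR-Ori. Of the 6 IR libraries, 2 reached the sham range and 1 the IR-Ori range. The differences were -0.77 ± 0.27 in IR (edgeR adjusted p = 0.0920) and 0.92 ± 0.27 in IR-Ori against IR (adjusted p = 0.0631). DESeq2 placed both past the threshold, at -0.78 (adjusted p = 0.0450) and 0.94 (adjusted p = 0.0173), but Nr1i2 passed in only 1 of 31 alternatives for the first and 5 of 30 for the second. In all, DESeq2 called 5 members lower in IR (Nr1h5, Nr1i2, Nr1i3, Thrb and Tle2) and 1 higher (Cebpd), against 4.83% and 7.63% of all genes, and 4 higher in IR-Ori against IR (Nr1h5, Nr1i2, Nr1i3 and Tle2) and 0 lower, against 3.08% and 6.07%.

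Of the 8 tested hepatocyte identity factors, 0 passed in any comparison. Hnf4a, the receptor that controls much of the hepatocyte programme, ran from 77.2 over a median of 81.4 to 96.2 FPKM in sham, from 52.9 over 93.9 to 147 in IR and from 76.2 over 96.1 to 115 in IR-Ori. The sham libraries were close together and lay inside the wide IR range. Its differences were 0.16 ± 0.19 in IR and 0.03 ± 0.19 in IR-Ori against IR (edgeR adjusted p = 0.672 and 0.932). Foxa1, a pioneer factor that opens chromatin, ran from 3.03 over 5.57 to 11.7 FPKM in sham, 5.51 over 7.46 to 15.6 in IR and 3.80 over 4.96 to 9.37 in IR-Ori. Its groups overlapped, with differences of 0.45 ± 0.31 and -0.60 ± 0.31 (adjusted p = 0.402 and 0.238). Foxa2, which acts in bile acid and lipid metabolism, ran from 4.62 over 11.9 to 29.1 FPKM in sham, 5.79 over 15.3 to 18.9 in IR and 7.92 over 12.5 to 22.2 in IR-Ori, so sham alone spanned both other groups. Its differences were -0.10 ± 0.36 and 0.07 ± 0.36 (adjusted p = 0.901 and 0.921).

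The remaining identity factors differed in their spread. Onecut1 and Onecut2, homeodomain factors of liver and bile duct development, had log2 fold changes of -0.88 ± 0.45 and -0.77 ± 0.32 in IR (edgeR adjusted p = 0.251 and 0.147), and 0.51 ± 0.46 and 0.71 ± 0.32 in IR-Ori against IR. Prox1, a homeobox factor of hepatoblasts and lymphatic endothelium, was split within IR, at 5.07 to 8.0 FPKM in the 3 libraries with a low mitochondrial share and 12.1 to 25.4 in the other 3. In sham the same split overlapped, at 6.5 to 20.8 FPKM with a low share and 11.4 to 16.8 otherwise. The slope of Prox1 on the share did not pass (edgeR adjusted p = 0.297). Means of Prox1 were 14.1, 13.3 and 18.9 FPKM in sham, IR and IR-Ori, with differences of -0.14 ± 0.36 and 0.56 ± 0.37. Nr5a2, the receptor LRH-1 that drives bile acid synthesis genes, had differences of -0.05 ± 0.23 and -0.24 ± 0.24, and Foxa3 had -0.03 ± 0.25 and -0.34 ± 0.25.

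Of the steroid receptors, Nr3c1 (the glucocorticoid receptor) ran from 5.35 over a median of 7.13 to 8.49 FPKM in sham, 3.36 over 5.51 to 7.18 in IR and 3.25 over 4.60 to 9.46 in IR-Ori. The groups overlapped, and differences were -0.42 ± 0.22 in IR and 0.04 ± 0.22 in IR-Ori against IR (edgeR adjusted p = 0.244 and 0.919). Nr3c2, the mineralocorticoid receptor, was lower in level, with means of 1.24, 0.933 and 0.800 FPKM in sham, IR and IR-Ori. Rxra, the main retinoid X receptor of hepatocytes, ran from 33.8 over 38.9 to 47.5 FPKM in sham, 29.65 over 35.97 to 43.35 in IR and 23.3 over 36.2 to 43.0 in IR-Ori. It varied little, with differences of -0.22 ± 0.17 and -0.04 ± 0.17 (adjusted p = 0.484 and 0.910). Rxrb, Rxrg and the retinoic acid receptor Rara had log2 fold changes between -0.48 and 0.02 in IR, and 0 of them passed.

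Thrb, the main thyroid hormone receptor of hepatocytes, ran from 2.97 over a median of 4.0 to 4.38 FPKM in sham, 2.42 over 2.62 to 3.87 in IR and 3.13 over 3.61 to 4.45 in IR-Ori. The IR libraries split, with IR 3 and IR 5 at 3.80 and 3.87 and the other 4 at 2.42 to 2.72, below all sham libraries. The differences were -0.43 ± 0.15 in IR (edgeR adjusted p = 0.0914) and 0.39 ± 0.15 in IR-Ori against IR (adjusted p = 0.132). Esrra (ERRα), a regulator of mitochondrial energy genes, had means of 8.03 ± 1.86, 5.44 ± 1.30 and 8.37 ± 1.88 FPKM (SD, n = 6) in sham, IR and IR-Ori. Its differences were -0.58 ± 0.23 (adjusted p = 0.130) and 0.62 ± 0.23 (adjusted p = 0.118). With the mitochondrial share as a covariate, 5 members were lower in IR (Nr1h5, Nr1i3, Thrb, Esrra and Tle2) and 1 higher (Cebpd), against 4.92% and 7.93% of all genes, and 2 higher in IR-Ori against IR (Nr1h5 and Tle2) and 0 lower, against 0.404% and 1.58%. Over all alternatives the difference in IR passed in 4 of 31 for Thrb and 3 of 31 for Esrra.

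The other receptors did not pass in any comparison. Rora, which acts on clock and lipid genes, had 1.39 to 3.60 FPKM in 5 IR libraries and 12.6 in IR 6. Pparg and Ppard, fatty acid receptors, had differences of 0.17 ± 0.26 and 0.38 ± 0.24 in IR, and -0.68 ± 0.26 and -0.23 ± 0.24 in IR-Ori against IR. The orphan receptors Nr2c1, Nr2c2, Nr2f1, Nr2f2 and Nr2f6 had log2 fold changes between -0.52 and 0.20 in IR, and between -0.04 and 0.29 in IR-Ori against IR. Nr2c2 is uncertain, since its mean of 50 counts stands beside 178 for the overlapping opposite-strand gene Mrps25. Thra overlaps the clock receptor gene Nr1d1 on the opposite strand over 1075 bases (means of 193 and 832 counts), which limits its value in the same way, as does the opposite-strand gene Ocel1 for Nr2f6 (5239 bases, means of 262 and 464 counts). For Thra the differences were 0.20 ± 0.37 and -0.14 ± 0.37.

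The levels covered a wide range. In sham, mean FPKM ran from 0.0517 (Rarb) to 111 (Nr1i3), in the order Nr1i3, Cebpa, Hnf4a, Cebpb, Nr1i2, Rxra, Nr1h3 and Foxa3 for the top 8. Of the 35 pairs of neighbours in this order, 5 differed by more than the larger SD of the pair and 2 had ranges that were apart, Rxra above Nr1h3 and Ppard above Nr2c2. The order of the other neighbours is within the spread. In IR, Cebpb had the highest mean (102 FPKM), and the rank of Nr1h5 went from 20 in sham to 32 in IR and 22 in IR-Ori, while that of Cebpd went from 29 to 19 and 27.

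**Figure D3:**
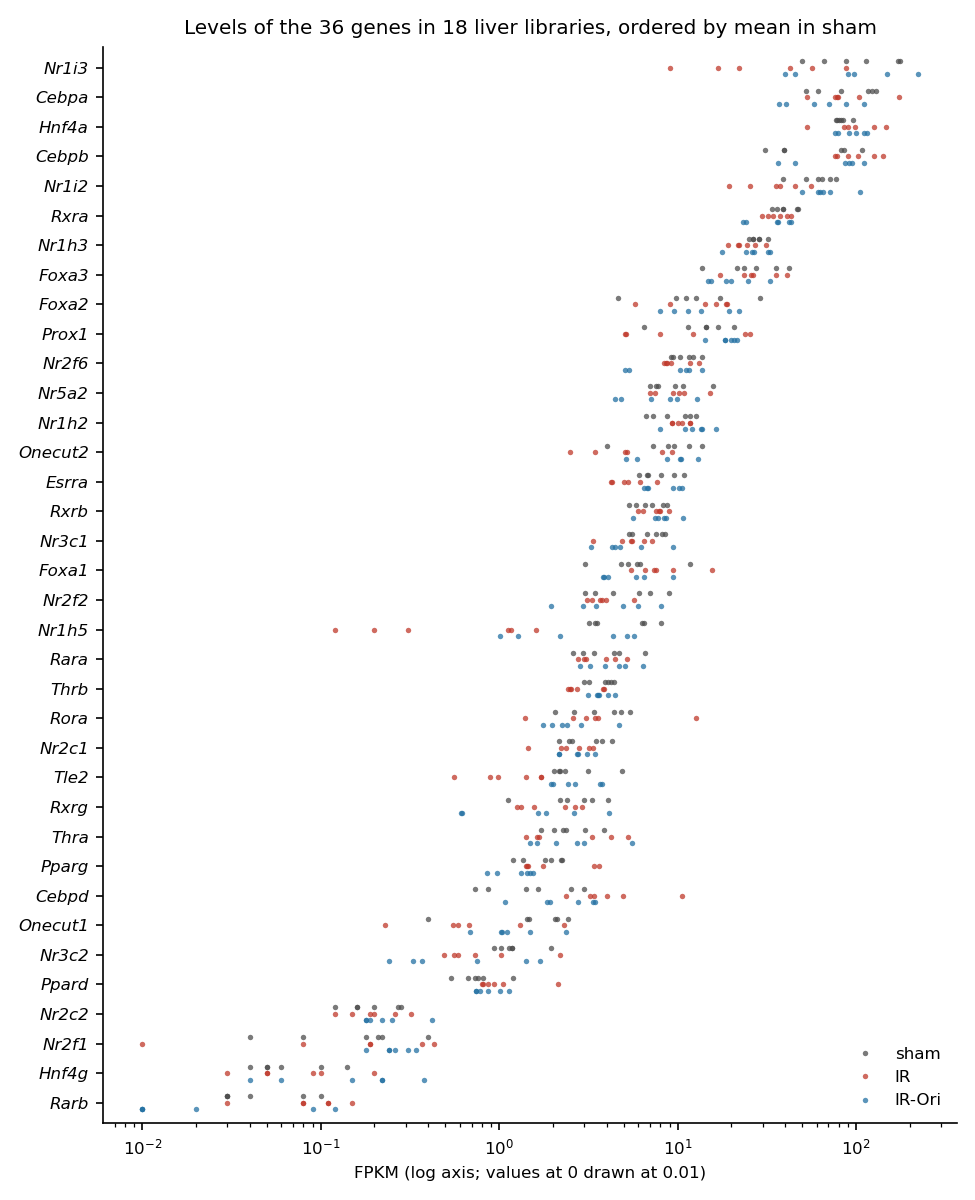
FPKM of the 36 genes in each of 18 libraries on a log axis, ordered by the mean in sham, with 1 point per library coloured by group and values at 0 drawn at 0.01. Neighbouring genes overlap almost throughout, and the red IR points of Nr1h5 reach below 1 FPKM, under all sham points of that gene.

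Within the groups, many of these genes followed the mitochondrial share. In the edgeR fit with the share as a term beside the groups, 9 of 34 members were higher (Foxa2, Nr1h2, Nr1h5, Nr1i3, Nr2f1, Rxrb, Rara, Esrra and Tle2) and 5 lower (Foxa3, Cebpa, Nr2c1, Nr3c1 and Rora) in libraries with a larger share. Over all genes the shares were 19.9% higher and 23.0% lower, so such a relation was common in these libraries. Per 10 percentage points, Nr1h5 changed by 0.55 ± 0.17, Nr1i3 by 0.52 ± 0.18, Rara by 0.35 ± 0.06, Tle2 by 0.33 ± 0.09 and Rora by -0.53 ± 0.11 on the log2 scale (edgeR adjusted p = 0.0127, 0.0227, 2.05e-04, 0.00425 and 0.00101). Hnf4a (-0.07 ± 0.07) and Rxra (-0.04 ± 0.06) did not pass. What set the share in a library was not tested.

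**Figure D4:**
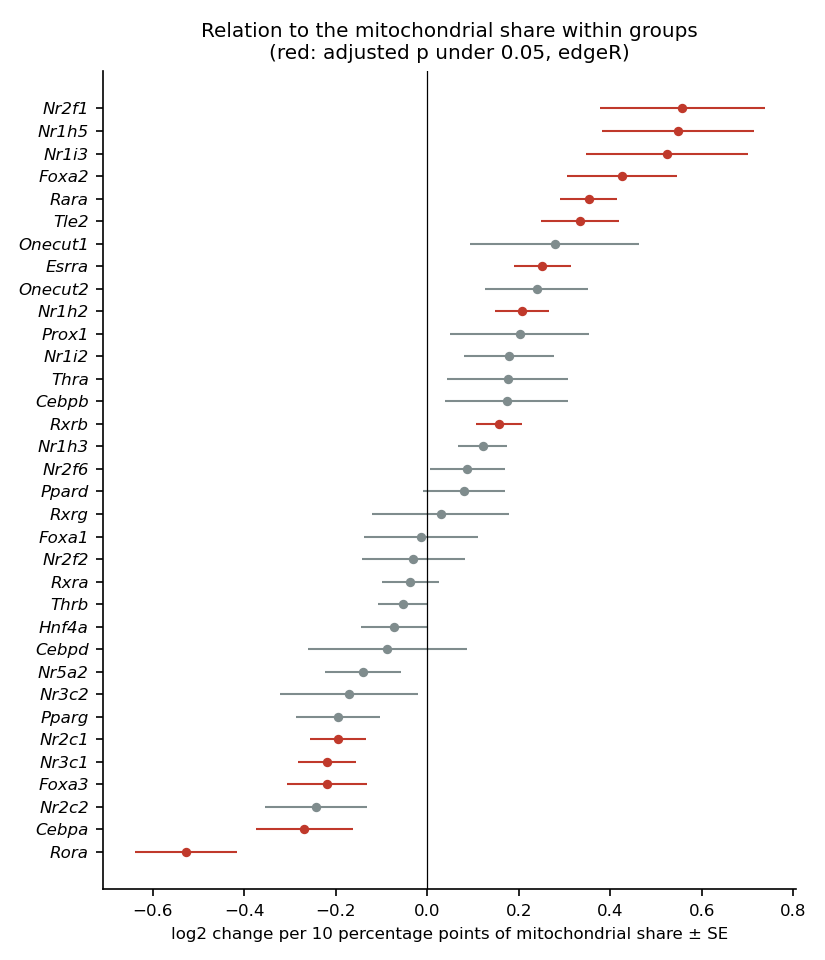
Log2 change ± standard error per 10 percentage points of mitochondrial share within the groups, for the 34 tested genes in 18 libraries, with red for an adjusted p under 0.05 (edgeR). The 9 red genes right of 0 and the 5 left of 0 have genes that did not pass between them in the order. Rora is lowest at -0.53, and Nr2f1 (0.56) and Nr1h5 (0.55) are highest.

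**Figure D5:**
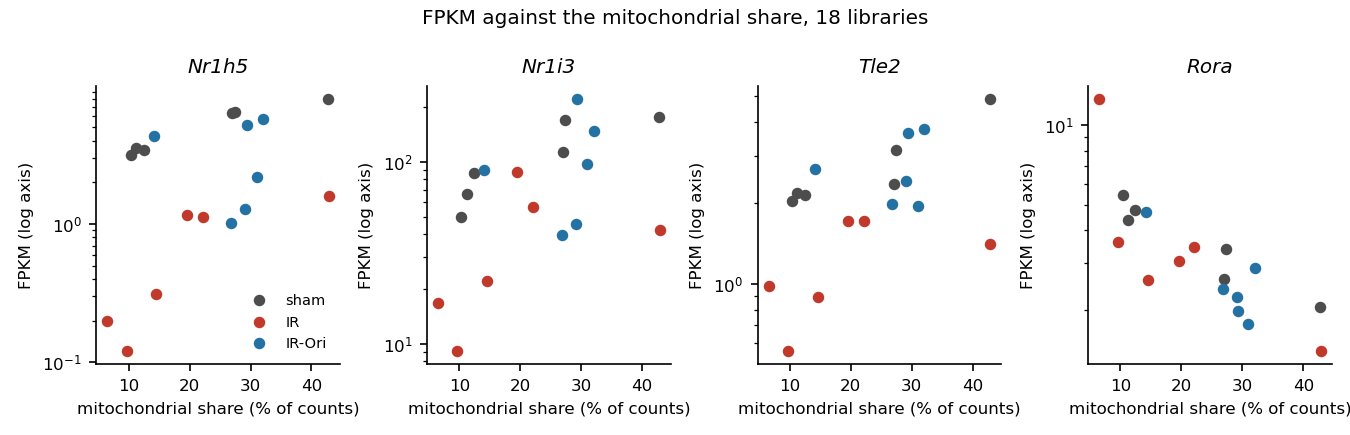
FPKM on a log axis against the mitochondrial share of counts in percent for 4 genes in 18 libraries, coloured by group. Nr1h5, Nr1i3 and Tle2 are lowest in the IR libraries with a small share, and Rora is highest in the IR library with the smallest share (12.6 FPKM).

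As a description over the 18 libraries, deviations of log2(FPKM + 1) from the group means were compared between all pairs of members. Those of Nr1h5 were most like those of Rara (Pearson r = 0.87, Spearman rho = 0.88), with Nr1i3 next (r = 0.87, rho = 0.86), and Nr1i3 and Tle2 had r = 0.84 and rho = 0.81. Leaving out the 2 libraries farthest from the median gave r = 0.89, 0.86 and 0.80. All these points share the library, its depth and its mitochondrial share.

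The other genes of these pathways came from lists chosen with earlier results of these data known. Over all genes tested, 5.52% were higher and 2.36% lower in IR, and 0.596% higher and 3.01% lower in IR-Ori against IR. The bile acid receptor FXR itself, Nr1h4, did not pass in IR (-0.93 ± 0.39, edgeR adjusted p = 0.148). Of 21 genes tested from a list of other liver transcription factors, 2 rose and 5 fell in IR. Among those that fell were Lhx2 (-1.38 ± 0.31), Hlf (-1.01 ± 0.23), Tef (-1.11 ± 0.29) and Nfib (-0.87 ± 0.22). Log2 fold changes over this list ran from -1.61 to 1.69 in IR, and 0 of its genes passed in IR-Ori against IR. Of 30 coregulators, the Groucho relative Tle3 alone passed in IR, at 1.64 ± 0.39 (adjusted p = 0.0157), opposite in sign to Tle2, and 0 passed in IR-Ori against IR.

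Target genes of the receptors moved in both directions. The counts below stand beside 5.52% of all genes tested higher and 2.36% lower in IR. In IR-Ori against IR these shares were 0.596% and 3.01%. With 1 or 2 genes called in most of these short lists, a difference from the shares of all genes was not tested. Of 11 LXR targets, the lipogenic genes Srebf1 (-1.60 ± 0.34) and Fasn (-2.17 ± 0.48) fell in IR and the sterol exporter Abcg1 (1.15 ± 0.29) rose (edgeR adjusted p = 0.00809, 0.0104 and 0.0214). In IR-Ori against IR, Srebf1 was 1.35 ± 0.34 and Abcg1 -1.07 ± 0.29 (adjusted p = 0.0313 and 0.0467). Of 13 PXR and CAR targets tested, only the glutathione transferase Gsta1 passed, at 3.56 ± 0.68 in IR (adjusted p = 0.00425) and -2.70 ± 0.65 in IR-Ori against IR (adjusted p = 0.0281). Of 9 genes of the NR5A2 and FXR axis tested, Cyp7a1, the rate-limiting enzyme of bile acid synthesis, fell by 3.14 ± 0.57 on the log2 scale in IR and was 2.36 ± 0.55 higher in IR-Ori than in IR (adjusted p = 0.00311 and 0.0241), and the bile acid exporter subunit Slc51b rose by 2.46 ± 0.63 in IR (adjusted p = 0.0216). Of 7 thyroid hormone receptor targets tested, Thrsp (-2.58 ± 0.78) and again Cyp7a1 fell in IR. Of 20 HNF4A targets, 0 rose and 2 fell in IR, Slc2a2 (-1.33 ± 0.29) and Pklr (-1.65 ± 0.37), the hepatic glucose transporter and pyruvate kinase. Of 15 C/EBP targets, the acute-phase genes Orm1 (1.47 ± 0.40) and Orm2 (2.68 ± 0.50) rose, and 0 fell. Of 14 glucocorticoid receptor targets, Sult1e1 (4.64 ± 0.96) and Lcn2 (2.78 ± 0.85) rose, and of 7 retinoid targets tested Tgm2 (1.60 ± 0.29) rose. In IR-Ori against IR, 0 members of the HNF4A, C/EBP, glucocorticoid and retinoid target lists passed.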

How the data were processed

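The submitters' processing notes list cutadapt 1.9.1, HISAT2 2.2.1, DESeq2 (no version) and build GRCm39, with no role or order for any of them. How genes were counted, and with which annotation, is not given in the sources used here. One deposited table gives, per gene and library, the authors' whole-number counts, not scaled, and the authors' FPKM. Dividing each count by gene size and by the sum of all counts of the library returned 100.0% of the deposited FPKM within 0.0051, so mitochondrial counts are in that total.

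The 36 genes were found by symbol. The members and gene lists were chosen with earlier results of these data known. The table holds counts, so the planned edgeR 4.0.16 test (R 4.3.3) was used. Genes passed filterByExpr (minimum count 10, minimum total 15), which left 14595 of 56691. One quasi-likelihood model with TMM factors was fitted to 18 libraries (15 residual degrees of freedom), with F tests, Benjamini-Hochberg adjustment over all genes tested and a threshold of 0.05. Standard errors are the size of the log2 fold change divided by the square root of F. The script was tested on simulated counts. The relation to the mitochondrial share came from the same model with the share in percent added.

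Full values were given for members past the threshold and for Hnf4a, Cebpa, Foxa1, Foxa2, Nr1h3, Nr1i2, Nr3c1 and Rxra. Of each list of other genes, called members were counted and up to 4 with the smallest p could be named. The list of other nuclear receptors is not reported here. Nr1i3, Thrb, Esrra, Cebpb, Rora and Prox1 were given in more detail after their values were seen. Alternatives were DESeq2 1.42.0, RLE factors, totals without mitochondrial genes, limma 3.58.1 on log2(FPKM + 1) and log2(FPKM + 0.1), other filters, the 2 groups alone, a replicate block, the share as covariate, libraries split at a share of 15%, and each library left out. Leaving out the libraries with a share above 40% was added after seeing the data. Depth was 12449529 to 19798188 counts, and the common biological coefficient of variation was 0.398.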

Additional observations from a re-analysis of the deposited data

Results flagged for a closer look

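Each member's FPKM was checked in each group of 6 libraries for a highest or lowest library whose gap to its nearest neighbour, divided by the range of the group, exceeds Dixon's 95% critical value for 6 samples. Of 108 groups checked, 9 had such a library, each at the top, and chance alone gives about 1 in 20.

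In IR, Rora was 12.61 FPKM in IR 6 against 1.39 to 3.6 in the others, and Cebpd was 10.52 in the same library against 2.37 to 4.97. IR 6 has the smallest mitochondrial share of all libraries, 6.52%. Ppard was 2.14 FPKM in IR 5 (others 0.80 to 1.05), and Nr3c2 was 2.2 in that library (others 0.49 to 1.03), which has a share of 9.65%. Nr2f2 was 5.70 FPKM in IR 2 (others 3.12 to 3.99). In sham, Foxa1 was 11.65 FPKM in sham 5 (others 3.03 to 6.17) and Nr3c2 was 1.95 in sham 4 (others 0.94 to 1.18). In IR-Ori, Thra was 5.52 FPKM in IR-Ori 1 (others 1.49 to 3.0), and Nr2c2 was 0.42 in IR-Ori 3 (others 0.18 to 0.25). Of these genes only Cebpd was called in a comparison between groups.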

How the results depend on the processing

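The falls of Nr1h5 and Tle2 in IR kept direction and call in 30 of 31 alternatives, the exception being the libraries with a mitochondrial share of at least 15%. Cebpd kept its call in 14 of 31, and the rises in IR-Ori in 11 of 30 for Nr1h5 and 19 of 30 for Tle2. No called difference of a member changed sign, whereas differences that did not pass could, as that of Tle2 in IR-Ori against sham (-0.38 to 0.17).

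For IR against sham, main counts were 1 member higher, 2 lower, 806 genes higher and 345 lower. Members higher went to 0 with the 2 groups alone, with the replicate block, under a share of 15%, at 15% or more, and without the libraries above 40%. Members lower went to 5 with DESeq2 and with the share as covariate, 0 at 15% or more and 4 without the libraries above 40%. Genes higher became 383 and 395 with limma (pseudocounts 1 and 0.1) and 14 at 15% or more. Genes lower became 705 with DESeq2, 203 and 206 with limma, 718 with the covariate, 582 under 15% and 0 at 15% or more.

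For IR-Ori against IR, main counts were 2 members higher, 0 lower, 87 genes higher and 439 lower. Members higher went to 4 with DESeq2 and without the libraries above 40%, 1 at a minimum count of 50, and 0 with limma, with the 2 groups alone, with the block and at 15% or more. Genes higher became 449 with DESeq2, 32 and 26 with limma, 24 with the 2 groups, 0 at 15% or more and 625 without the libraries above 40%. Genes lower became 886, 87 and 70, 148, 15 and 1086 in the same order, 292 at a minimum count of 50 and 231 with the covariate. For IR-Ori against sham DESeq2 called 34 higher and 4 lower in place of 0. Members lower with the mitochondrial share went from 5 to 3 at a minimum count of 50. The cause of these moves was not tested, and neither was the part of the fewer libraries in the splits.

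With each library left out in turn, members higher and lower in IR ranged over 0 to 1 and 2 to 3, and all genes over 442 to 920 and 134 to 640. In IR-Ori against IR, members higher ranged over 0 to 4, and genes over 11 to 319 and 140 to 737. Members higher and lower with the share ranged over 6 to 11 and 2 to 5. Without IR 4, IR 5, IR 6, IR-Ori 1, IR-Ori 3 or IR-Ori 6, 0 members were higher in IR-Ori against IR, and without IR 1 or IR 3 there were 4. In IR against sham, genes higher were 442, 485, 499 and 535 without IR 4, IR 5, sham 5 and sham 6, and genes lower were 139, 134 and 207 without IR 4, IR 5 and sham 4 and 640 without IR 1.

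Deviations of same-numbered libraries had r of 0.01 to 0.42 between IR and IR-Ori (4 of 6 pairs above 0.1), -0.44 to 0.34 between sham and IR and -0.36 to 0.30 between sham and IR-Ori (1 of 6 each). Not every pair was above 0.1, and 2 of 18 libraries correlated best with their own number, so the numbers were not taken as pairs. With the replicate block, genes called were 453 higher and 191 lower in IR, and 28 and 135 in IR-Ori against IR, where Nr1h5 was 2.07 (edgeR adjusted p = 0.0801) and Tle2 1.25 (adjusted p = 0.0591). The split under a share of 15% could not be run for IR-Ori, which has 1 such library. Low counts limit Nr1h5 in IR (5 to 74 counts), Hnf4g, Rarb and Nr2f1.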

Other observations

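Markers of other liver cells were counted in IR against sham (edgeR, adjusted p under 0.05). Over all genes tested, 5.52% were higher and 2.36% lower in IR, and 3.01% were lower in IR-Ori against IR. Of 10 Kupffer cell markers 0 passed, and their summed FPKM was 49.5 to 117 (sham), 58.8 to 122 (IR) and 63.0 to 101 (IR-Ori). Of 9 endothelial markers 3 rose, Cdh5 (log2 fold change 1.52 ± 0.30, ± SE), Lyve1 (2.46 ± 0.58) and Pecam1 (0.97 ± 0.24). Of 10 stellate cell markers Pdgfrb rose (1.07 ± 0.20), and of 5 cholangiocyte markers tested Sox9 rose (3.88 ± 0.67). In IR-Ori against IR, Sox9 fell by 3.24 ± 0.64 on the log2 scale (adjusted p = 0.0114) and 0 of the other genes in these lists passed. Of 3 lymphocyte and 5 erythroid markers tested, 0 passed in either comparison.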
